A study of Mus musculus with 28 samples.

Results

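The platelet-derived growth factor (PDGF) system was followed through its 4 ligand genes, Pdgfa, Pdgfb, Pdgfc and Pdgfd, and its 2 receptor genes, Pdgfra and Pdgfrb. These 6 genes were taken by name from a table of 53647 gene IDs, and all 6 had reads and passed the filter on low counts in every comparison. Brain metastases (BrM) were raised in PDGFRβ-CreERT2; Rosa-tdTomato mice by intracardiac injection of brain-homing cancer cells, either PyMT-BrM3 cells of breast origin or Sv2T3-BrM1 cells of lung origin. The labels give this genotype, and 2 mg of tamoxifen on each of 5 days, for the whole series, so the non-tumor mice are taken to carry the same alleles and drug. Tamoxifen lets the CreERT2 made under the PDGFRβ driver act and turns on tdTomato for good, so the sort reads past as well as present driver activity. The timing of tamoxifen relative to the tumour, the sex and the age of the mice are not given in the sources used here. Cells negative for CD45, CD11B and EPCAM were sorted as PDGFRβ-tdTomato-positive (mural, here the PDGFRb sort) or CD31-positive (endothelial, the CD31 sort), and RNA was read in 28 libraries: 4 PDGFRb libraries of breast BrM, 4 of lung BrM and 5 of non-tumor brain, and 5 CD31 libraries of each.

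PDGF ligands are secreted dimers that bring a pair of receptor tyrosine kinase chains together on the receiving cell. In the growing brain, endothelial PDGF-B binds PDGFRβ on pericytes and draws them to the vessel wall, and PDGF-A and PDGF-C act mainly through PDGFRα, which in the adult brain marks oligodendrocyte precursors and fibroblasts. PDGF-C and PDGF-D are secreted in a latent form whose CUB domains must be cut off by proteases, after which PDGF-D acts mainly on PDGFRβ.

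Library totals ran between 7.11 and 23.9 M counts, so that 3 counts, the limit a count of 0 allows, equalled 0.119 to 0.498 CPM, counts scaled to a common library size. The shallowest library, PDGFRb-sorted breast BrM mouse 51950, detected 9174 genes, against 12601 to 22752 in the others. In PDGFRb-sorted lung BrM, 12 pericyte marker genes summed to 7772 CPM in mouse 51435 and to 171 to 311 CPM in the other 3 mice, against 5443 to 14739 CPM in breast BrM and 14823 to 26495 CPM in non-tumor brain, so the other 3 went against the mural label. The 12 epithelial genes, which mark carcinoma cells in brain, summed to 1153 to 4468 CPM in PDGFRb-sorted breast BrM and 6202 to 10085 CPM in that of lung BrM, against 5.37 to 82.9 CPM in non-tumor brain. CD31 libraries had sums of 158 to 3171 CPM in breast BrM and 98.3 to 2267 CPM in lung BrM, against 0.175 to 10.3 CPM in non-tumor brain, although EPCAM-positive cells were gated out. All CD31 libraries held endothelial markers, at lower levels in part of the BrM ones. The 12 endothelial genes summed to 5175 to 11617 CPM in breast BrM and 8778 to 12586 CPM in lung BrM, against 11869 to 12446 CPM in non-tumor brain. Pecam1 was lower in every BrM library, at 592 to 1288 CPM in lung BrM and 630 to 1039 CPM in breast BrM, against 1362 to 1437 CPM in non-tumor brain. Mouse 54135 has a title and a cell type label that name opposite sorts, and its libraries were placed by title. By title its PDGFRb library had 14823 CPM of pericyte and 670 CPM of endothelial markers, and its CD31 library had 18.2 and 12112 CPM. Lung samples 55169-70 and 56195-56520 carry a pair of mouse numbers each and are counted as 1 mouse each here, although the labels do not say whether they pool animals.

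In non-tumor brain the 2 sorts divided the system between them. Pdgfa, Pdgfc, Pdgfra and Pdgfrb were higher in the PDGFRb sort and Pdgfb and Pdgfd were higher in the CD31 sort, so 6 of 6 members were called at an adjusted p under 0.05, against 27.9% of all genes tested (17.4% higher and 10.5% lower). Pdgfrb drove the sort and its difference is not a finding. It averaged 1156 ± 304 CPM in the PDGFRb sort and 0.948 ± 0.815 CPM in the CD31 sort (SD, n = 5 each). Pdgfb was 13.2-fold lower in the PDGFRb sort, with 22.2, 31.6, 19, 11 and 21.3 CPM there and 230, 312, 256, 282 and 307 CPM in the CD31 sort (log2 change -3.72 ± 0.56 SE, adjusted p = 8.82e-06). The Pdgfb values of the sorts did not overlap, and Pecam1, an endothelial adhesion molecule, stood at 0.309 to 11.5 CPM in the same PDGFRb libraries and at 1362 to 1437 CPM in the CD31 libraries. Pdgfd was 7.97-fold lower in the PDGFRb sort (log2 change -3.0 ± 0.58, adjusted p = 0.000269). Pdgfa was 6.65-fold higher there (log2 change 2.73 ± 0.60, adjusted p = 0.000975). Pdgfra was 38.7-fold higher (log2 change 5.27 ± 0.93, adjusted p = 7.65e-05), with 35.5 to 107 CPM in the PDGFRb sort and 0.397 to 3.21 CPM in the CD31 sort. Pdgfc was 50.3-fold higher (log2 change 5.65 ± 0.87, adjusted p = 1.34e-05), against CD31 libraries that held 23 counts in all. Placing mouse 54135 by its cell type label ends all of these calls, with adjusted p between 0.297 and 0.708, and goes against the marker sums given above for its 2 libraries.

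**Figure D1:**
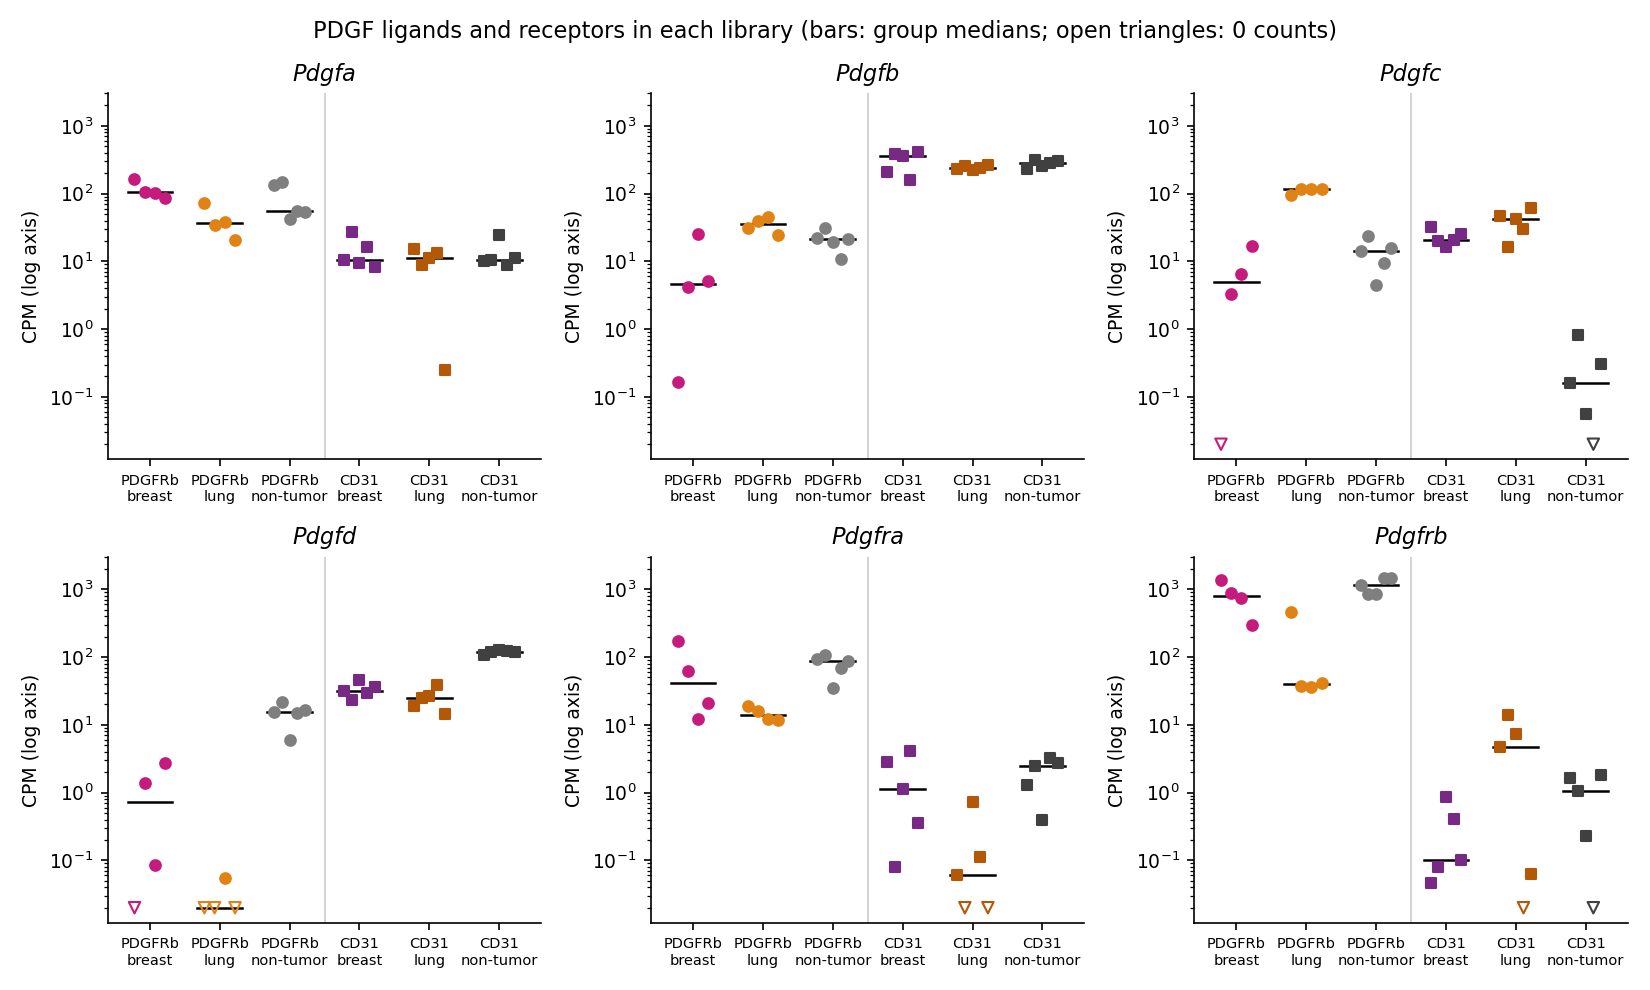
CPM of each gene (log axis) in the 28 libraries, with PDGFRb-sort groups as circles, CD31-sort groups as squares, bars at the group medians and open triangles at 0 counts. Pdgfc in CD31 libraries reaches 16.1 CPM or more in every BrM library and is at most 0.809 CPM in the non-tumor ones, and Pdgfd shows the opposite order.

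Per unit of length (FPKM, fragments scaled by transcript length and library size), the ligands ranked differently in each sort. In CD31 cells Pdgfb made up the largest share of the summed ligand FPKM in every library, with 74.6 ± 9.43% in breast BrM and 72.1 ± 5.13% in lung BrM, against 64.6 ± 4.14% in non-tumor brain (SD, n = 5 each). Pdgfd made up 8.53 ± 2.60%, 8.11 ± 2.65% and 27.7 ± 2.17% in the same order of groups. Pdgfc made up 6.29 ± 2.92% in breast BrM and 11.6 ± 4.90% in lung BrM, against 0.0566 ± 0.0592% in non-tumor brain. Pdgfa led in PDGFRb cells, with 93.8 ± 5.56% in breast BrM (n = 4) against 81.6 ± 5.17% in non-tumor brain (n = 5). The lung BrM libraries of that sort had Pdgfc at 45 ± 12.1%, Pdgfa at 40.8 ± 14.4% and Pdgfb at 14.2 ± 3.81% (n = 4). The 3 lung libraries with low pericyte sums had 45% to 58.0% Pdgfc, and that of mouse 51435 had 28.8%. These shares are described without a test.

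**Figure D2:**
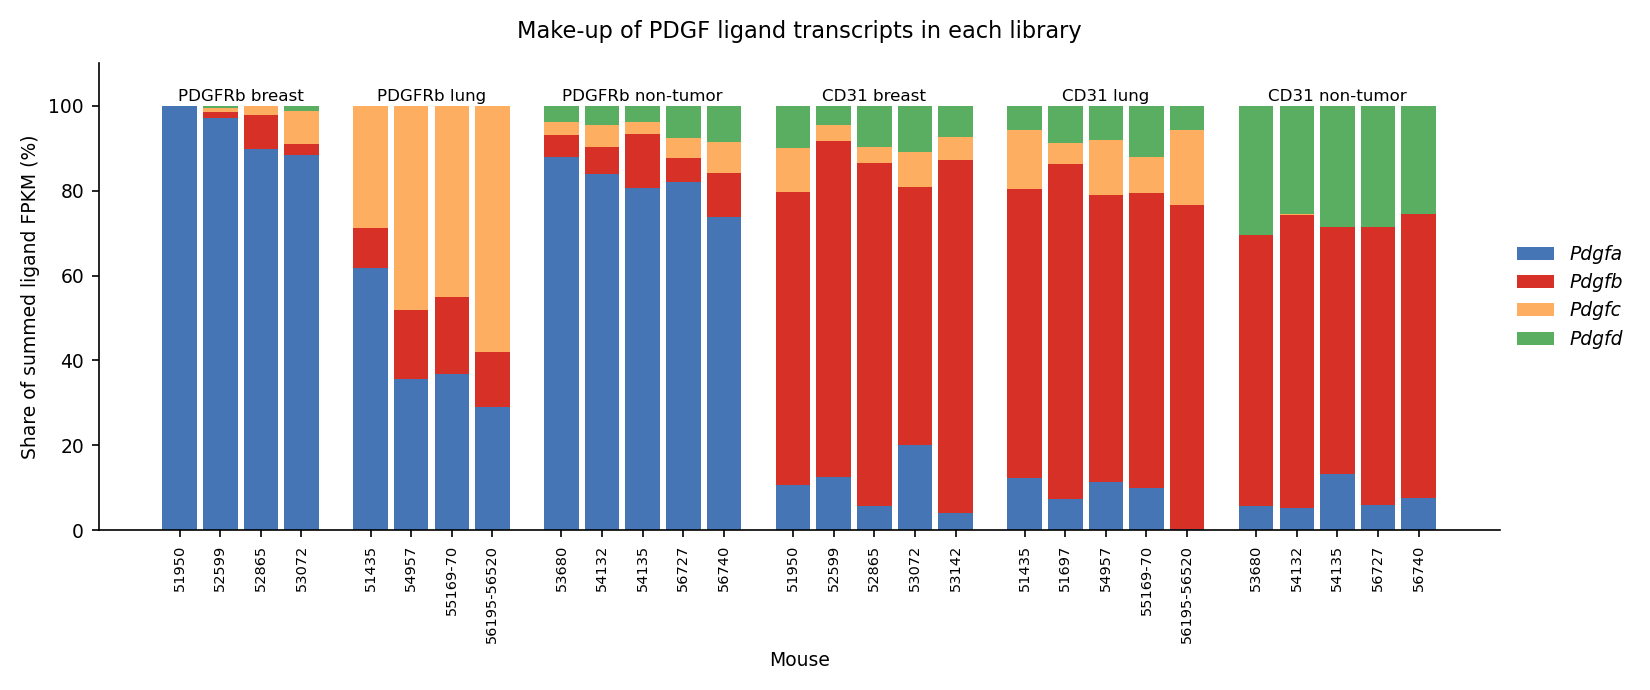
Share of each ligand (percent of the summed FPKM of the 4 ligand genes) in every library, by mouse number and group. Pdgfb fills most of each CD31 bar, Pdgfa fills most of each breast and non-tumor PDGFRb bar, and Pdgfc is the largest ligand in 3 of the 4 lung PDGFRb bars.

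Metastasis was then set against non-tumor brain within each sort, to ask how the ligands of the vessel wall and the receptors of its mural cells stood in BrM. In CD31 cells of breast BrM, 2 of 6 members were called, Pdgfc higher and Pdgfd lower, against 30.1% of all genes tested (18.6% higher and 11.4% lower). In CD31 cells of lung BrM, 3 of 6 were called, Pdgfc higher and Pdgfd and Pdgfra lower, against 34.8% of all genes (20.4% higher and 14.5% lower). These shares are near the background, so the counts alone say nothing about the family. Both comparisons use the same 5 non-tumor libraries.

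Pdgfb, the endothelial ligand for mural PDGFRβ, was not called in either comparison. It had 209, 389, 365, 158 and 408 CPM in CD31 cells of breast BrM and 229, 252, 226, 243 and 262 CPM in those of lung BrM, against 230, 312, 256, 282 and 307 CPM in non-tumor brain. The groups overlapped, and the breast BrM libraries lay on both sides of the non-tumor range. Its log2 change was 0.17 ± 0.21 in breast BrM (95% interval -0.28 to 0.61, a fold of 0.824 to 1.53, adjusted p = 0.601). In lung BrM it was -0.13 ± 0.21 (-0.58 to 0.31, a fold of 0.671 to 1.24, adjusted p = 0.660). The column names carry dates, whose meaning is not given in the sources used here. Among the breast libraries of the first of 3 dates that held both BrM and non-tumor libraries Pdgfb was 158 and 209 CPM against 230 CPM in the non-tumor library of that date, and among those of the second it was 365 to 408 CPM against 256 CPM, so the direction turned between dates. Pdgfb per 1000 CPM of 12 endothelial markers was 24.2 to 37.4 in breast BrM and 17.9 to 26.1 in lung BrM, against 18.5 to 25.0 in non-tumor brain.

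Pdgfc, the latent ligand of PDGFRα, rose most among the members in CD31 cells. It had 32.1, 19.9, 16.1, 20.7 and 25.7 CPM in breast BrM and 47.1, 16.4, 41.5, 29.6 and 60.3 CPM in lung BrM, against 0.161, 0.809, 0.0568, 0 and 0.307 CPM in non-tumor brain. All 10 BrM libraries lay above all 5 non-tumor libraries. The log2 change was 6.44 ± 0.66 in breast BrM, an 87.0-fold difference (95% interval 32.9 to 230, adjusted p = 2.20e-06). In lung BrM it was 7.24 ± 0.68, a 152-fold difference (55.8 to 412, adjusted p = 8.81e-07). The non-tumor libraries held 23 counts in all, 13 of them in mouse 54132, and without that library the log2 changes were 7.36 in breast BrM and 8.18 in lung BrM.

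The same direction held inside each date. Pdgfc was 20.7 and 32.1 CPM in breast BrM against 0.161 CPM in non-tumor brain on the first date, 16.1 to 25.7 CPM against 0.0568 CPM on the second, and 41.5 and 60.3 CPM in lung BrM against 0 and 0.307 CPM on the third. No date held both breast and lung BrM. With date in the model the log2 change was 7.72 in breast BrM (adjusted p = 0.000576) and 8.33 in lung BrM (adjusted p = 0.000827), within ranges of adjusted p up to 0.00644 and 0.00223 over all alternatives.

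Epithelial genes were higher in the same CD31 BrM libraries, as given above, and the levels of Pdgfc were therefore set beside them. Per 1000 CPM of the 12 epithelial genes, Pdgfc was 6.53 to 126 CPM in CD31-sorted breast BrM and 12.5 to 301 CPM in that of lung BrM. Among PDGFRb libraries, whose epithelial sums were larger, it was 0 to 3.75 CPM in breast BrM and 11.7 to 15.1 CPM in lung BrM. The PDGFRb library of mouse 51950, the shallowest of all with 9174 genes detected, had 0 Pdgfc counts at an epithelial sum of 1153 CPM. The CD31 library of the same mouse had 32.1 CPM of Pdgfc at an epithelial sum of 1245 CPM. Across the 5 lung CD31 libraries the lowest epithelial sum, 98.3 CPM in mouse 55169-70, came with 29.6 CPM of Pdgfc, the sum of 1311 CPM in mouse 51697 came with 16.4 CPM, and the highest sum, 2267 CPM in mouse 51435, came with 47.1 CPM. In all breast BrM pairs of libraries from 1 mouse, Pdgfc was higher in the CD31 library and the epithelial sum was higher in the PDGFRb library, with the exception of mouse 51950 for the sum. In all 4 lung BrM pairs both were higher in the PDGFRb library, with Pdgfc at 93.9 to 119 CPM there against 29.6 to 60.3 CPM in the CD31 library of the same mice. The 8 proliferation genes also summed higher in CD31 cells of breast BrM (372 to 573 CPM) and lung BrM (195 to 460 CPM) than in non-tumor brain (2.04 to 4.37 CPM), and so did 9 fibroblast markers in part of the lung BrM libraries, at 7.44 to 13.2 CPM in breast BrM and 5.12 to 100.4 CPM in lung BrM, against 2.74 to 14.8 CPM in non-tumor brain. The highest fibroblast sum and the highest Pdgfc level were both in lung mouse 56195-56520, and the matrix gene Dcn rose by 5.57 ± 1.36 on the log2 scale in lung BrM. The part of these marker groups in the Pdgfc result was not tested.

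**Figure D3:**
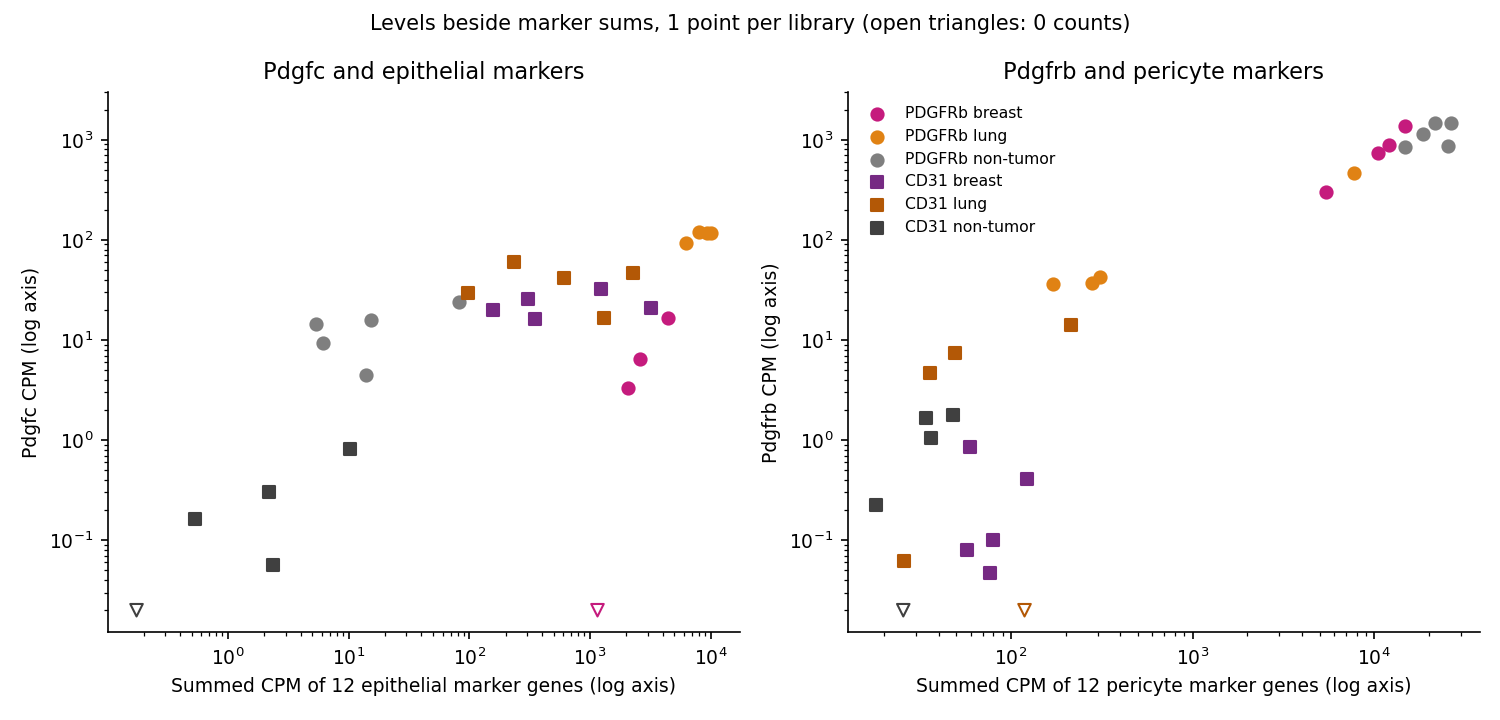
Left, Pdgfc CPM against the summed CPM of 12 epithelial marker genes, and right, Pdgfrb CPM against the summed CPM of 12 pericyte marker genes, 1 point per library on log axes, with open triangles at 0 counts. CD31 libraries of BrM hold 16.1 to 60.3 CPM of Pdgfc over epithelial sums of 98.3 to 3171 CPM, and the 3 lung PDGFRb libraries with 171 to 311 CPM of pericyte markers hold 36 to 42.2 CPM of Pdgfrb.

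Pdgfd, the latent ligand of PDGFRβ, fell in CD31 cells of both metastases. It had 31.3, 23.5, 45.9, 29.3 and 36.2 CPM in breast BrM and 18.8, 24.7, 26.8, 38.1 and 14.5 CPM in lung BrM, against 109, 118, 127, 123 and 118 CPM in non-tumor brain. All 10 BrM libraries lay below all 5 non-tumor libraries. The fall was 3.5-fold in breast BrM (log2 change -1.81 ± 0.23, adjusted p = 1.90e-05) and 4.66-fold in lung BrM (log2 change -2.22 ± 0.23, adjusted p = 2.49e-06). Within dates Pdgfd was 29.3 and 31.3 CPM in breast BrM against 109 CPM in non-tumor brain on the first date, 23.5 to 45.9 CPM against 127 CPM on the second, and 14.5 and 26.8 CPM in lung BrM against 118 and 123 CPM on the third. The 12 endothelial markers summed to 5175 to 11617 CPM in breast BrM and 8778 to 12586 CPM in lung BrM, against 11869 to 12446 CPM in non-tumor brain. Of the 12, 1 was called higher and 2 lower in each comparison. Their median log2 change was -0.27 in breast BrM and -0.039 in lung BrM. Pecam1 fell by 0.71 ± 0.17 in breast BrM and by 0.52 ± 0.17 in lung BrM on the log2 scale, while Cdh5 rose by 1.10 ± 0.28 and 0.96 ± 0.28. In bulk libraries like these, fewer cells of a type and less RNA per cell cannot be told apart. Pdgfd per 1000 CPM of endothelial markers was 2.02 to 5.67 CPM in breast BrM and 1.2 to 3.03 CPM in lung BrM, against 8.74 to 10.48 CPM in non-tumor brain, and neither BrM range overlapped with that of non-tumor brain. When the cell type label rather than the title placed mouse 54135, the breast call was lost (log2 change -1.48, adjusted p = 0.0629, the highest of its alternatives), and it was kept under the other 11.

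The windows upstream of these 2 ligand genes are shown because Pdgfc and Pdgfd moved in opposite directions in the same CD31 libraries. They are the 250 bases before the gene start in RefSeq on GRCm38.p6, Pdgfc at chr3:81036166-81036415 and Pdgfd at chr9:6168236-6168485, both on the plus strand, with motif matches in capitals.
Pdgfc: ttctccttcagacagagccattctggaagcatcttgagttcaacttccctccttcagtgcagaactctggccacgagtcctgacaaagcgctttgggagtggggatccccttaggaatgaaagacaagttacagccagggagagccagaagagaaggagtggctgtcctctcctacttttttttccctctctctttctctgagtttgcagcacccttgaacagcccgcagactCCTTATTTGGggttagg
Pdgfd: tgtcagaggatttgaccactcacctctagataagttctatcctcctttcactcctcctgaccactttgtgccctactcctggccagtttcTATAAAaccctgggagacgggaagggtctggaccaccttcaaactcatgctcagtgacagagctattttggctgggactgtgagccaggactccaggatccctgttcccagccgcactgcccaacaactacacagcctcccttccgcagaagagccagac
Both strands were searched. The Pdgfc window held 1 CArG box, the site bound by serum response factor, a motif present in 1.47% of all 32851 RefSeq windows of the same length. The TATA box, TATAAA, had 1 match in the Pdgfd window and was present in 12.4% of all windows. The GC box, searched as GGGCGG, was present in 32.7% of windows and had 3 matches in the 2 Pdgfa windows together. The core site of the AP-1 factors, TGACTCA, was present in 4.46% of windows and matched none of the 5 windows of Pdgfa, Pdgfc, Pdgfd and Pdgfra. The same held for ACGTG, the core shared by hypoxia response elements and some E-boxes, which was present in 16.6% of windows. No motif searched matched the Pdgfra window, and windows of Pdgfb and Pdgfrb are not reported here. A match is a description of the letters only.

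Pdgfa, a ligand of PDGFRα, was not called in CD31 cells, with 8.34 to 27.2 CPM in breast BrM and 0.248 to 15.1 CPM in lung BrM, against 8.86 to 24.7 CPM in non-tumor brain. The ranges overlapped, and the lowest value belonged to lung mouse 56195-56520 alone. The intervals were wide, a fold of 0.439 to 2.86 in breast BrM (adjusted p = 0.876) and 0.301 to 1.97 in lung BrM (adjusted p = 0.681).

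The receptors were scarce in CD31 libraries. Pdgfra had 0.0610, 0, 0.716, 0.113 and 0 CPM in lung BrM, against 1.29, 2.49, 0.397, 3.21 and 2.76 CPM in non-tumor brain, a total of 13 against 180 counts. Its log2 change of -3.44 ± 1.19 was called (adjusted p = 0.0345), the groups overlapped through lung mouse 54957, and without that library the change was -5.20 (adjusted p = 0.00656). The call was lost, at adjusted p between 0.0565 and 0.0729, without any 1 of lung mice 51435, 51697 and 55169-70 and non-tumor mice 54132, 56727 and 56740. In breast BrM Pdgfra ran between 0.0803 and 4.14 CPM and was not called (adjusted p = 0.920). Pdgfrb had 4.64, 14.1, 7.37, 0 and 0.0621 CPM in lung BrM, against at most 0.859 CPM in breast BrM and 1.79 CPM in non-tumor brain. It was not called in either comparison with non-tumor brain (adjusted p = 0.166 in lung BrM and 0.425 in breast BrM).

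**Figure D4:**
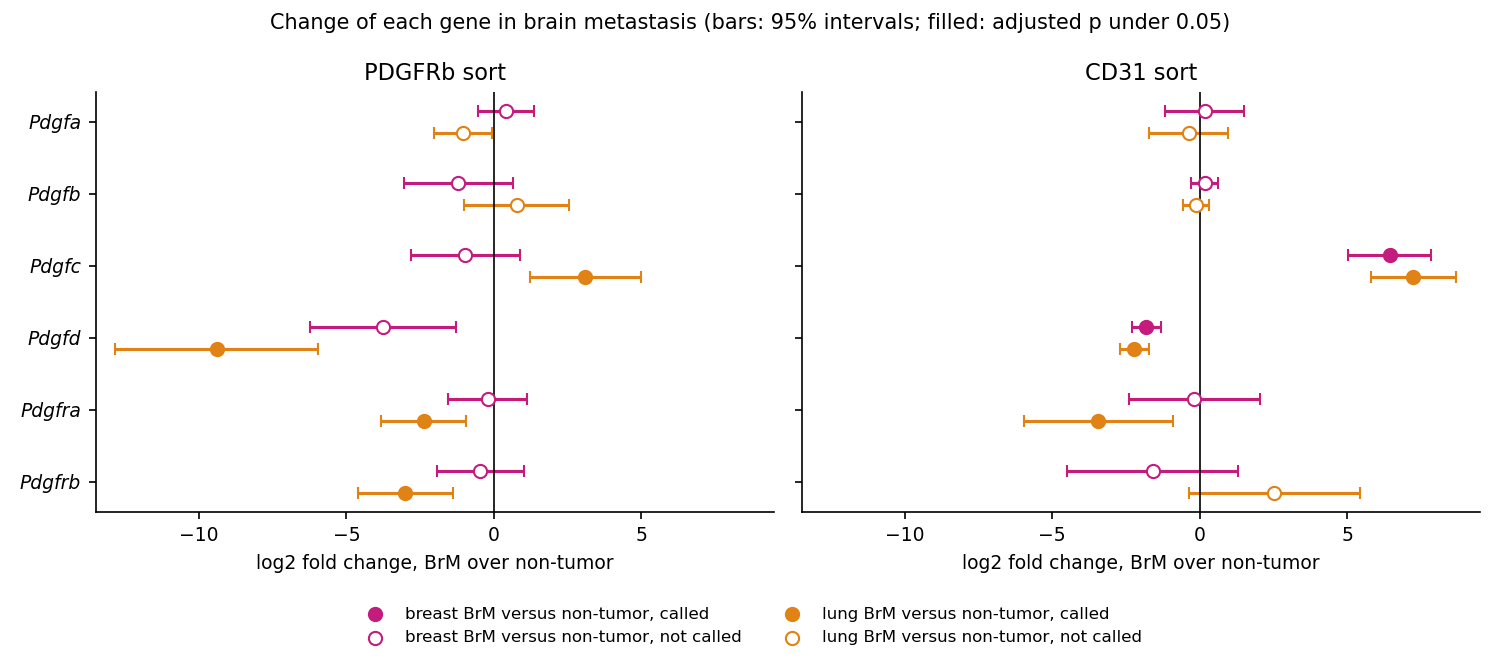
Log2 fold change of each gene in BrM over non-tumor brain with its 95% interval, PDGFRb sort on the left and CD31 sort on the right, breast BrM above lung BrM for each gene, filled where the adjusted p was under 0.05. The CD31 intervals of Pdgfb stay within -0.58 and 0.61, those of Pdgfc begin at 5.04 and 5.80, and those of Pdgfd end at -1.32 and -1.73.

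In PDGFRb-sorted breast BrM none of the 6 members was called, against 8.99% of all genes tested (6.3% higher and 2.69% lower), and 1 of 6 had an unadjusted p under 0.05 by edgeR's test. That was Pdgfd, with 0, 1.38, 0.0841 and 2.71 CPM in breast BrM and 15.4, 21.7, 5.99, 15 and 16.3 CPM in non-tumor brain. Every breast BrM library lay below every non-tumor library. The log2 change was -3.76 ± 1.16 (adjusted p = 0.0585), and without breast mouse 51950, the shallow library, it was -3.39 with an adjusted p of 0.0254. The call also turned on the method, since 6 of 12 other settings called Pdgfd, among them DESeq2 at a log2 change of -3.87 (adjusted p = 0.000858, range over these settings 0.000544 to 0.439) and limma-voom at -4.93.

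Pdgfrb, the receptor that pericytes use to read endothelial PDGF-B and the gene whose driver marked the sorted cells, was not called in breast BrM. It had 1386, 880, 737 and 302 CPM there and 1143, 857, 856, 1457 and 1470 CPM in non-tumor brain. The groups overlapped (log2 change -0.46 ± 0.68, a fold of 0.264 to 2.01, adjusted p = 0.743). The lowest library, mouse 53072, also had the lowest pericyte sum of the breast group, 5443 CPM. Per 1000 CPM of pericyte markers, Pdgfrb was 55.5 to 94.0 CPM in breast BrM and 33.5 to 68.3 CPM in non-tumor brain.

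In PDGFRb-sorted lung BrM 4 of 6 members were called, Pdgfc higher and Pdgfd, Pdgfra and Pdgfrb lower, against 17.5% of all genes tested (9.91% higher and 7.58% lower). Pdgfrb had 466 CPM in mouse 51435 and 36.9, 36 and 42.2 CPM in the other 3, against 856 to 1470 CPM in non-tumor brain. All 4 lung libraries lay below all 5 non-tumor libraries, and 3 of the 4 lay far below the fourth. The log2 change was -3.0 ± 0.75 (adjusted p = 0.0147) over all 4 and -4.95 (adjusted p = 1.48e-05) without mouse 51435. With mouse 51435 alone as the lung group, an alternative chosen after seeing the data, it was -1.35, a value from an arm of 1 library whose p says nothing about stability. Pericyte markers moved with it, at 7772 CPM in mouse 51435 and 171 to 311 CPM in the other 3, and Pdgfrb per 1000 CPM of pericyte markers was 59.9 CPM in mouse 51435 and 133 to 211 CPM in the other 3, against 33.5 to 68.3 CPM in non-tumor brain. Kcnj8, a pericyte channel subunit, ran between 2.65 and 833 CPM in lung BrM, against 859 to 2120 CPM in non-tumor brain.

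Pdgfra, which in this sort can come from fibroblasts or from oligodendrocyte precursors, had 19, 15.9, 12.1 and 11.8 CPM in lung BrM, against 95.1, 107, 35.5, 69.1 and 86.6 CPM in non-tumor brain. The groups did not overlap, and the 4 lung libraries lay close together although mouse 51435 differed from the other 3 in pericyte markers. The log2 change was -2.38 ± 0.67 (adjusted p = 0.0254), and the call was lost, at adjusted p between 0.0508 and 0.0737, without any 1 of lung mice 54957, 55169-70 and 56195-56520 and non-tumor mice 53680 and 56740. In breast BrM it spread over 173, 62.2, 12.4 and 20.8 CPM and was not called (log2 change -0.21 ± 0.62, adjusted p = 0.879). The 9 fibroblast markers other than Pdgfra summed to 1779 to 8846 CPM in breast BrM and 122 to 2520 CPM in lung BrM, against 796 to 2268 CPM in non-tumor brain. Pdgfra per 1000 CPM of them was 4.84 to 19.6 CPM in breast BrM, against 38.2 to 53.2 CPM in non-tumor brain, ranges that did not overlap, while in lung BrM it was 7.52 CPM in mouse 51435 and 44.4 to 131 CPM in the other 3. Among these markers the collagen gene Col1a1 had 342 to 2312 CPM in breast BrM and 61.5 to 181 CPM in non-tumor brain. Of the 8 fibroblast markers tested in that comparison, 1 was called higher and 0 lower, with a median log2 change of 0.35. The sum, and the ratio to it, therefore need not follow most of the list. The 9 precursor markers summed to 104 to 182 CPM in breast BrM and 27.2 to 41.8 CPM in lung BrM, against 8.74 to 84.2 CPM in non-tumor brain.

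Among the ligands, Pdgfc had 93.9, 118, 119 and 118 CPM in PDGFRb-sorted lung BrM, against 14.4, 24.0, 4.46, 9.37 and 15.7 CPM in non-tumor brain. The groups did not overlap, and the library of mouse 51435 was the lowest of the 4. The 8.55-fold difference (log2 change 3.10 ± 0.88, adjusted p = 0.0265) lost its call, at adjusted p between 0.0589 and 0.0702, without any 1 of lung mice 54957, 55169-70 and 56195-56520 and non-tumor mice 53680, 54135, 56727 and 56740. Pdgfd was at 0 counts in 3 lung libraries and at 1 count in the fourth, mouse 55169-70, against 1550 counts over the 5 non-tumor libraries, a ratio of non-tumor to lung of 1001 with a 95% counting interval of 179 to 39575. Its fall was called (adjusted p = 0.00157) and was -11.08 on the log2 scale without mouse 55169-70, against -9.40 with it, a fitted value that depends on the prior count. Pdgfa was 72.7, 34.6, 38.4 and 20.6 CPM in lung BrM and 42.5 to 150 CPM in non-tumor brain, and was not called (log2 change -1.04 ± 0.46, adjusted p = 0.142) except without mouse 51435 (-1.51, adjusted p = 0.0470).

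Pdgfb was present in these lung libraries, 3 of which had low endothelial sums. It had 30.6, 39.7, 44.4 and 24.9 CPM in PDGFRb-sorted lung BrM, against 22.2, 31.6, 19, 11 and 21.3 CPM in non-tumor brain, values that overlapped (log2 change 0.78 ± 0.83, adjusted p = 0.598). Endothelial markers summed to 481 CPM in mouse 51435 and to 32.4 to 42.3 CPM in the other 3, against 670 to 1111 CPM in non-tumor brain, and Pecam1 was at or below 0.441 CPM in all 4. Pdgfb per 1000 CPM of endothelial markers was 589 to 1369 CPM in the 3 libraries with low pericyte sums, against 10.6 to 28.4 CPM in PDGFRb-sorted non-tumor brain and 17.9 to 26.1 CPM in CD31-sorted lung BrM. Mouse 51435 had a sum of 481 CPM with little Pecam1, and PDGFRb-sorted non-tumor brain also had little Pecam1, as given above. In this sort the sum, and the ratio to it, therefore need not follow endothelial cells, and the source of Pdgfb was not tested. In PDGFRb-sorted breast BrM, Pdgfb was 0.166, 4.15, 25.6 and 5.06 CPM and was not called (log2 change -1.21 ± 0.86, adjusted p = 0.428).

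The dates give the lung changes of this sort on the third date only, when 2 lung and 2 non-tumor PDGFRb libraries were listed. Pdgfrb was 36.9 and 42.2 CPM in lung BrM against 1457 and 1470 CPM, Pdgfc 118 and 118 CPM against 9.37 and 15.7 CPM, Pdgfra 11.8 and 15.9 CPM against 69.1 and 86.6 CPM, and Pdgfd 0 and 0 CPM against 15 and 16.3 CPM. Each pair of ranges was apart in the direction of the whole group. With date in the model Pdgfrb kept its call (log2 change -5.13, adjusted p = 0.00553), and Pdgfc (3.32, adjusted p = 0.367), Pdgfd (-11.12, adjusted p = 0.121) and Pdgfra (-2.41, adjusted p = 0.301) lost theirs at log2 changes close to those without date for Pdgfc and Pdgfra.

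Lung and breast BrM were also compared directly. In CD31 cells none of the 6 members was called, against 2.13% of all genes tested (0.578% higher and 1.55% lower), and 2 of 6, Pdgfra and Pdgfrb, had an unadjusted p under 0.05 by edgeR's test. By DESeq2 1 of these, Pdgfrb, was called (log2 change 4.16, adjusted p = 0.0369). In the PDGFRb sort 2 of 6 were called, Pdgfc higher and Pdgfd lower in lung BrM, against 5.47% of all genes (3.08% higher and 2.39% lower). Pdgfc averaged 112 ± 12.2 CPM in lung BrM and 6.66 ± 7.24 CPM in breast BrM (SD, n = 4 each), ranges that did not overlap (log2 change 4.07 ± 1.0, adjusted p = 0.0305). Without any 1 of breast mice 52599 and 52865 and lung mice 54957, 55169-70 and 56195-56520 its adjusted p was 0.0736 to 0.0851, and without breast mouse 53072 the change was 5.04. Pdgfd was at 1 count in lung BrM and 66 counts in breast BrM, a breast to lung ratio of 71.7 with a counting interval of 12.4 to 2873 (adjusted p = 0.0376), and this call was lost without any 1 of the 4 lung mice or of breast mice 52599 and 53072 (adjusted p = 0.0619 to 0.118). Under whole alternatives, among them mouse 51435 alone as the lung group, Pdgfc kept its call in 8 of 12 and Pdgfd in 5 of 13. No date held both breast and lung BrM, so this contrast could not be read within a date. Pdgfrb, Pdgfra and Pdgfa had log2 differences of -2.54, -2.17 and -1.45, lung over breast BrM, and did not pass the test (adjusted p = 0.0650, 0.0803 and 0.0954), and without lung mouse 51435 Pdgfrb passed it at -4.42 (adjusted p = 5.83e-05) and Pdgfa at -1.86 (adjusted p = 0.0359). Pdgfra passed it at -2.51 without breast mouse 52865 (adjusted p = 0.0416).

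Whether breast BrM moved a member differently in the 2 sorts was tested as an interaction, the effect in the PDGFRb sort minus that in the CD31 sort. One of 6 members was called, Pdgfc, against 5.93% of all genes tested (2.35% higher and 3.57% lower). The log2 effects differed by -7.42 ± 1.17 (adjusted p = 0.000185), and by -8.56 (adjusted p = 0.00556) with the mouse as a replicate block. Pdgfc was thus 0, 3.35, 6.52 and 16.8 CPM in PDGFRb-sorted breast BrM against 4.46 to 24.0 CPM in non-tumor brain, while the CD31 values rose as given above. For Pdgfd the difference between sorts was -1.94 ± 0.82 and did not pass (adjusted p = 0.174), and for Pdgfb it was -1.38 ± 0.74 (adjusted p = 0.316). Leaving out the PDGFRb library of breast mouse 52865 gave a called difference for Pdgfb (-2.91, adjusted p = 0.00405), and leaving out that of breast mouse 53072 gave one for Pdgfd (-2.93, adjusted p = 0.0327).

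The genes whose levels ran most like each member over the 28 libraries were found by the root-mean-square difference of centred log2 CPM among 14624 genes. For Pdgfb they were Rflnb (0.81), Dennd3 (0.85) and Kbtbd11 (0.87), and for Pdgfa Arhgef40 (0.71), Ston1 (0.81) and Ccpg1os (0.85). Pdgfc ran closest to Car13, a carbonic anhydrase (1.24), Exoc3l4 (1.40) and Phgdh, the first enzyme of serine synthesis (1.43). Pdgfd ran closest to Colgalt2, a collagen galactosyltransferase (1.22), Plekhg1 (1.3) and S1pr1, a sphingosine phosphate receptor (1.34). Pdgfra ran closest to Srl (1.23), Dact1 (1.32) and Mt3 (1.34). Pdgfrb ran closest to the pericyte proteoglycan gene Cspg4 (1.3), Itga7 (1.47) and Ggt5 (1.47). A gene with no change at all would have differed from Pdgfrb by 5.06 and from Pdgfb by 2.51, and the libraries share sort and BrM status, so these distances are descriptions.

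The other genes of the pathway were taken as 6 lists. Most PDGFRb-sorted lung BrM libraries had few pericyte markers and high epithelial sums, as given above. The part of this make-up in the lung changes of that sort below was not tested. Among 15 genes that cut, bind or retain the ligands, 6 rose and 1 fell of 13 tested in CD31 cells of breast BrM, and 7 rose and 1 fell in those of lung BrM. Of all genes tested, 18.6% rose and 11.4% fell in the breast comparison, and 20.4% rose and 14.5% fell in the lung one. The convertase Pcsk6 rose by 7.32 ± 0.75 on the log2 scale in breast BrM and 6.89 ± 0.74 in lung BrM. Ext1, which builds the heparan sulfate that holds PDGF-B, rose by 3.57 ± 0.39 and 3.0 ± 0.38, and the proteoglycan Hspg2 rose by 2.01 ± 0.24 and 1.79 ± 0.24. Plat, the protease that cuts PDGF-C into its active form, fell by 1.35 ± 0.28 in breast BrM and by 0.85 ± 0.28 in lung BrM. St14, a protease that can activate PDGF-D, rose by 3.73 ± 1.02 in breast BrM CD31 cells and by 6.73 ± 1.55 in PDGFRb-sorted breast BrM. It is also an epithelial protease, and epithelial sums were higher in the same libraries. Among PDGFRb cells 3 of 15 rose and 0 fell in each metastasis, where 6.3% of all genes rose in breast BrM and 9.91% in lung BrM, Plaur, the urokinase receptor, among them at 3.74 ± 0.37 in breast BrM and 6.40 ± 0.42 in lung BrM.

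Of the genes that partner the receptors at the membrane, 2 rose and 1 fell of 10 in CD31 cells of breast BrM, and 3 rose and 1 fell in those of lung BrM, near the 30.1% and 34.8% of all genes called in either direction. Itgb3, an integrin chain, rose by 4.31 ± 0.33 in breast BrM and 4.14 ± 0.33 in lung BrM, while Cav1, the caveolar coat gene, fell by 1.66 ± 0.20 and 1.54 ± 0.20. In these CD31 libraries 7 platelet markers summed to 9.68 to 31.7 CPM in breast BrM and 10.5 to 45.6 CPM in lung BrM, against 2.58 to 13.8 CPM in non-tumor brain. The part of platelets in the Itgb3 rise was not tested. Axl, a receptor kinase, rose by 4.51 ± 0.89 in lung BrM CD31 cells and was 5.40 ± 0.94 higher there than in breast BrM. PDGFRb-sorted lung BrM had 2 of 11 that rose and 2 that fell. Cspg4 fell by 3.09 ± 0.76, and Lrp1, a co-receptor that mural cells and fibroblasts carry, fell by 1.88 ± 0.42. Cspg4 is also 1 of 12 pericyte markers, of which 7 fell and 0 rose there. In PDGFRb-sorted breast BrM 1 of 11 rose, Itgb3 at 2.77 ± 0.57, and 1 fell, Cav1 by 2.24 ± 0.61. The shares of all genes called in this sort were 8.99% in breast BrM and 17.5% in lung BrM.

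Of 29 signal transducers, 11 rose and 5 fell in CD31 cells of breast BrM and 9 rose and 5 fell in those of lung BrM, with a median log2 change over the list of 0.19 in both, beside 0.04 and -0.0033 over all genes tested, of which 30.1% and 34.8% were called. The Src-family kinase Fyn rose by 2.04 ± 0.27 in breast BrM and 1.73 ± 0.27 in lung BrM, the adaptor Nck2 rose by 1.83 ± 0.27 in breast BrM, and the phosphoinositide kinase subunit Pik3cb fell by 1.06 ± 0.38 and 1.14 ± 0.38. PDGFRb cells of breast BrM had 2 risers of 29 and 0 that fell, Stat3 at 1.61 ± 0.28 and Src at 1.51 ± 0.39. Those of lung BrM had 2 that rose and 2 that fell, with the adaptor Gab1 lower by 2.63 ± 0.39 and Pik3r1, which regulates such kinases, lower by 2.12 ± 0.44, against 8.99% of all genes called in breast BrM and 17.5% in lung BrM.

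Of 18 negative regulators, 9 rose and 1 fell in CD31 cells of breast BrM and 7 rose and 2 fell in those of lung BrM, against 18.6% and 20.4% of all genes that rose and 11.4% and 14.5% that fell. Errfi1, an inhibitor of receptor kinases, rose by 2.96 ± 0.42 and 1.95 ± 0.40, and the Sprouty gene Spry4 by 2.24 ± 0.31 and 1.81 ± 0.31, while the receptor phosphatase Ptprj fell by 1.87 ± 0.70 in lung BrM. The PDGFRb sort had 1 riser of 18 in breast BrM, the phosphatase Dusp6 at 1.24 ± 0.23, and in lung BrM 1 riser, the phosphatase Acp1 at 2.00 ± 0.29, and 2 that fell, with Ptprk, of the same kind, lower by 0.85 ± 0.27. These counts did not exceed the shares of all genes called in this sort, 8.99% in breast BrM and 17.5% in lung BrM.

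The immediate early genes, which growth factor signals switch on within minutes in cultured cells, were counted next. In the PDGFRb sort 7 of 15 rose and 0 fell in breast BrM, against 6.3% of all genes, and 4 rose and 0 fell in lung BrM, against 9.91%. Fosl1 rose by 4.95 ± 1.3 in breast BrM and 9.68 ± 1.51 in lung BrM, Klf10 by 3.09 ± 0.47 and 3.4 ± 0.48, and Myc by 2.56 ± 0.36 and 3.14 ± 0.37. The chemokine gene Ccl2 rose by 4.93 ± 0.92 in breast BrM. In CD31 cells 2 rose and 4 fell in breast BrM and 3 rose and 2 fell in lung BrM, with Myc at 5.09 ± 0.44 and 5.70 ± 0.46 and Jun lower by 1.05 ± 0.26 in both. These CD31 counts were near the shares of all genes called in either direction, 30.1% in breast BrM and 34.8% in lung BrM. The difference between sorts in breast BrM passed its own test for 5 of the 15, against 5.93% of all genes (2.35% higher and 3.57% lower). It was in favour of the PDGFRb sort for Klf10 (3.61 ± 0.57), Ier2 (2.64 ± 0.41), Ier3 (2.11 ± 0.43) and Junb (1.59 ± 0.44) and of the CD31 sort for Myc (-2.52 ± 0.54). Epithelial sums were higher in the same libraries, as given above, and their part in these changes was not tested.

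**Figure D5:**
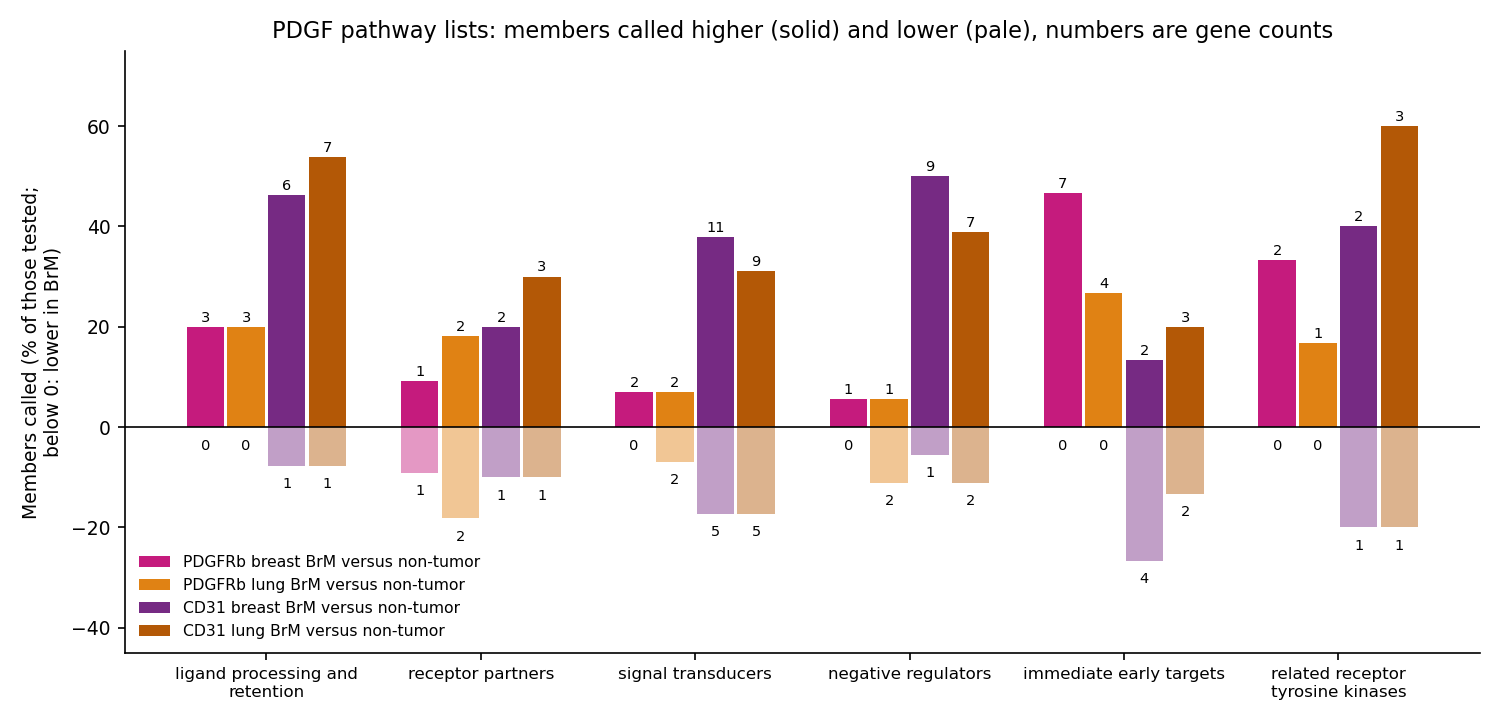
Share of the tested genes of each pathway list that were called higher (solid, above 0) or lower (pale, below 0) in BrM, with the gene counts printed at the bars, PDGFRb-sort comparisons left of CD31-sort ones. Over all genes 30.1% and 34.8% are called in the breast and lung CD31 comparisons and 8.99% and 17.5% in the PDGFRb ones, and in PDGFRb-sorted breast BrM 7 of 15 immediate early genes rise and 0 fall.

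Among 6 related receptor kinases, Kit rose by 5.04 ± 0.48 in CD31 cells of breast BrM and 4.14 ± 0.46 in those of lung BrM, and by 3.69 ± 0.86 in PDGFRb-sorted breast BrM. Flt1, the VEGF receptor 1 gene, fell by 1.37 ± 0.19 in breast BrM CD31 cells and 1.75 ± 0.19 in lung BrM CD31 cells, and rose in the PDGFRb sort by 2.61 ± 0.41 in breast BrM and 1.45 ± 0.40 in lung BrM. The difference of its breast effect between sorts was 3.97 ± 0.44 (adjusted p = 1.6e-06). Of the kinases tested, 2 rose and 1 fell of 5 in breast BrM CD31 cells, 3 rose and 1 fell of 5 in lung BrM CD31 cells, 2 of 6 rose in PDGFRb-sorted breast BrM and 1 of 6 in that of lung BrM, beside 30.1%, 34.8%, 8.99% and 17.5% of all genes called in the same order. Csf1r, the receptor of a macrophage growth factor, was among the risers of lung BrM CD31 cells, at 4.4 ± 1.51. It is also 1 of 11 microglia and macrophage markers, of which 4 rose, Csf1r among them, and 0 fell of 8 tested there. Their sums were 7.18 to 115 CPM in CD31-sorted lung BrM, against 1.07 to 6.47 CPM in non-tumor brain. The part of such cells in the Csf1r rise was not tested.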

How the data were processed

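The authors' expected counts, estimated reads per gene without scaling, FPKM values and log2 expression values were deposited for all 28 libraries, 1 log2 table per sort. Per the submitters' processing notes, the tools were limma 3.50.3, edgeR 3.36.0, RSEM 1.3.3 and STAR 2.7.9a, and the genome build was mm10. Per the labels' protocols, cDNA came from a SMART-Seq kit for low inputs and libraries from Nextera XT, neither of which marks strand, so sense and antisense reads cannot be told apart, and reads carried no molecular barcodes, so counting intervals and floors cover counting error only. Up to 1 constant per library, 99.99% of the deposited log2 values lay within 0.01 of log2 CPM recomputed with 0.5 added to each count. Groups and mouse numbers were read from the sample titles.

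Expected counts were rounded, filtered with filterByExpr and scaled by TMM. The 3 groups of a sort shared a fit, as did all 6 groups for comparisons between sorts. The quasi-likelihood test of edgeR 4.0.16 was used with robust dispersions (R 4.3.3), adjusted by Benjamini-Hochberg over all genes tested, 14876 in the CD31 fit, 17028 in the PDGFRb fit and 18548 in the joint fit. A gene was called at an adjusted p under 0.05. Errors of log2 changes are standard errors, and p-values measure the spread between the samples, taken as mice. CPM used TMM-scaled totals of all 28 libraries, and the log2 CPM of the pattern search a prior count of 2. The fit was tested on simulated counts with known changes. Of the gene IDs, 52093 matched a reference symbol, and rows without one held 0.182% to 1.57% of counts.

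Beside the 6 members, the text names the 3 genes of most similar pattern to each and, from each pathway list, some of the up to 4 called members of largest change in a comparison. Plat and Junb lie outside that rule and were chosen after their values were seen. The values of 1 list gene are not reported here. Members and lists were chosen with earlier results of these data known. Alternatives were other scaling, filters and tools (DESeq2 1.42.0, limma 3.58.1, also on log2(FPKM + 1) and log2(FPKM + 0.1)), date as a covariate, other placings of mouse 54135, no lung samples with 2 mouse numbers, each library left out, and the mouse as a replicate block. Pairing rests on the mouse number shared by both sorts. In 13 such mice the deviations from the group means correlated at -0.082 to 0.25 (median 0.00065), and 4 libraries matched their own partner best.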

Additional observations from a re-analysis of the deposited data

Results flagged for a closer look

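In groups of 4 or 5 libraries, a value was picked out when its gap to the nearest other value took up most of the group's range, and 5 of 36 groups met this rule. Chance meets it in about 1 group in 20 for normally distributed values, a rate that need not hold for CPM near 0. In the PDGFRb sort of lung BrM the library of mouse 51435 was the highest for Pdgfrb (466 CPM) and the lowest for Pdgfc (93.9 CPM). It was also the one with 7772 CPM of pericyte markers and the lowest epithelial sum of the 4, 6202 CPM. In the same group Pdgfd was highest in mouse 55169-70, at 0.0552 CPM or 1 count, and a single value above 0 always meets the rule. In the CD31 sort Pdgfra was highest in lung mouse 54957 (0.716 CPM), and Pdgfa was highest in non-tumor mouse 54135 (24.7 CPM), whose labels disagree on the sort.

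Effects that differed between groups by a test of the difference itself were those of Pdgfc and Pdgfd between lung and breast BrM in the PDGFRb sort, at log2 differences of 4.07 and -5.64, and that of breast BrM on Pdgfc between the PDGFRb and CD31 sorts, at -7.42. The first pair rests on 4 libraries of each origin, which shared no date, and 3 of the lung ones had few pericyte markers.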

How the results depend on the processing

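Of the member results, 487 of 561 values under whole alternatives and 457 of 510 values with 1 library left out kept their direction and their side of the threshold. Pdgfc in CD31 cells kept both in all of them, and Pdgfd in all but 1, given above. None of the changes that reversed had been called. Pdgfa in breast BrM CD31 cells was -0.21 with date as a covariate and -0.24 with mouse 54135 by its cell type label, and Pdgfra was 0.92 with date there and 0.077 in the PDGFRb sort of breast BrM. By that label Pdgfb in lung BrM was 0.16 in CD31 cells and -1.02 in the PDGFRb sort, Pdgfrb in lung BrM CD31 cells was -5.08, and the difference between sorts was 2.29 for Pdgfra. Without mouse 54135 that difference was 0.075 for Pdgfra and -0.27 for Pdgfa. With 1 library left out, the ranges were -0.11 to 0.54 for Pdgfa and -1.11 to 0.61 for Pdgfra in the difference between sorts, -0.19 to 0.54 for Pdgfa and -0.83 to 0.11 for Pdgfra in breast BrM CD31 cells, and -1.29 to 0.13 for Pdgfra in the PDGFRb sort of breast BrM. Pdgfrb in the PDGFRb sort of lung BrM lost its call at -1.35 with mouse 51435 alone, an arm of 1 library, -2.78 by the cell type label, -3.03 with no filter and -2.2 without the samples with 2 mouse numbers.

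Counts of genes called over the whole table moved by more than 1.5 times as follows. In CD31 cells the 4473 calls of breast BrM became 2291 with date and 2390 by the label, the 5182 of lung BrM became 1458 and 3000, and the 317 between lung and breast BrM became 0 with date (955 at an unadjusted p under 0.05), 872 with DESeq2, 490 with limma-voom, 63 by the label and 529 without the samples with 2 numbers. In the PDGFRb sort the 1531 of breast BrM became 115 with date, 3137 with DESeq2, 644 by the label, 921 without mouse 54135 and 990 without the samples with 2 numbers. The 2977 of lung BrM became 578, 4483, 1816 and 752 under date, DESeq2, the label and without those samples, and 161 with mouse 51435 alone. The 931 between lung and breast BrM became 102, 2314, 426 and 120 in the same order and 26 with mouse 51435 alone, 1480 on log2(FPKM + 0.1), 1760 on log2(FPKM + 1) and 1548 with limma-voom. Between sorts in non-tumor brain the 5173 became 0 by the label (1732 at an unadjusted p under 0.05). For the difference between sorts the 1099 became 1931 with DESeq2, 47 by the label and 701 without mouse 54135, and with the replicate block, which pairs the sorts of 1 mouse, 328. The block changed no call of a member.

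With 1 library left out the counts ran from 199 to 484 between lung and breast BrM in CD31 cells (lowest without breast 53072, highest without lung 56195-56520). In the PDGFRb sort they ran from 830 to 3289 in breast BrM (highest without the shallow breast 51950), from 349 to 2688 between lung and breast BrM (also highest without it) and from 1801 to 3103 in lung BrM. The cause of these moves was not tested. Size factors other than TMM shifted the median log2 change of all genes by -0.12 in both PDGFRb BrM comparisons and by 0.17 between sorts in non-tumor brain, and reversed no member. At these depths a gene below about 0.5 CPM cannot be told from 0 in the shallowest library.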
